A study of Mus musculus with 12 samples.

Results

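Liver RNA on 8 arrays was compared here, 4 from mice at the end of 4 months of second-hand smoke (SHS) and 4 from controls, out of 12 arrays in the series. The arrays were chosen by their labels alone, with source name SHS 4M for the first group (replicates 66 to 69, called SHS4m) and CONTROL for the other (replicates 1 to 4). All mice were male on a C57BL/6 background, with no engineered allele named, and they were 6 to 8 weeks old when the exposure began. SHS4m mice were exposed by whole body for 5 hours per day on 5 days per week to a machine-made mixture of mostly sidestream and some mainstream smoke of reference cigarettes. Controls were sham-exposed to filtered air, and both groups had standard diet without restriction. RNA was hybridised to Affymetrix whole-genome mouse arrays, so each value is a level in whole liver. The sources do not state that each array is a separate mouse, and the p-values measure the spread between these samples, which may in part be technical. The labels do not say whether the controls came from the sham mice kept for 4 months or for 1 month longer, so that this difference in age cannot be told apart from the exposure. The remaining 4 arrays, taken from exposed mice 1 month after the smoke ended, entered the fit only to estimate the spread.

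The liver clears foreign compounds in phases, in which cytochrome P450 enzymes oxidise them, transferases couple them to glutathione, sulfate or glucuronic acid, and transporters export the products. Sensors such as AHR, CAR, PXR and NRF2 raise these enzymes when their ligands or reactive compounds reach the cell. The same hepatocytes make glucose, fat, cholesterol, bile acids and most plasma proteins, under the control of feeding, glucocorticoids, growth hormone, cytokines and the circadian clock.

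Across 18193 genes, where a gene's value is that of its brightest probe set with no second gene name, 1359 differed between SHS4m and control liver at a Benjamini-Hochberg adjusted p under 0.05, which is 7.47% of the genes. Of these, 679 were higher in SHS4m mice (3.73%) and 680 were lower (3.74%). Over all 45037 probe sets 2430 were called (5.4%), 1136 higher (2.52%) and 1294 lower (2.87%). An unadjusted p under 0.05 with a 2-fold difference was met by 1114 probe sets (2.47%), of which 468 were higher (1.04%) and 646 lower (1.43%). The median log2 difference was 0.58 among the genes that rose and -0.65 among those that fell. A 2-fold difference or more was reached by 138 of the genes that rose and 169 of those that fell, and a 4-fold difference by 29 and 18. The 4 arrays of one group did not overlap the 4 of the other for 2828 genes (15.5%), with all SHS4m arrays above all controls for 1317 (7.24%) and below them for 1511 (8.31%). Once the median of each array was set equal, 63.7% of the called genes were higher, against 49.96% as given above, so the balance of rises and falls depends on the scaling. Without control replicate 3, 884 genes were called.

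**Figure D1:**
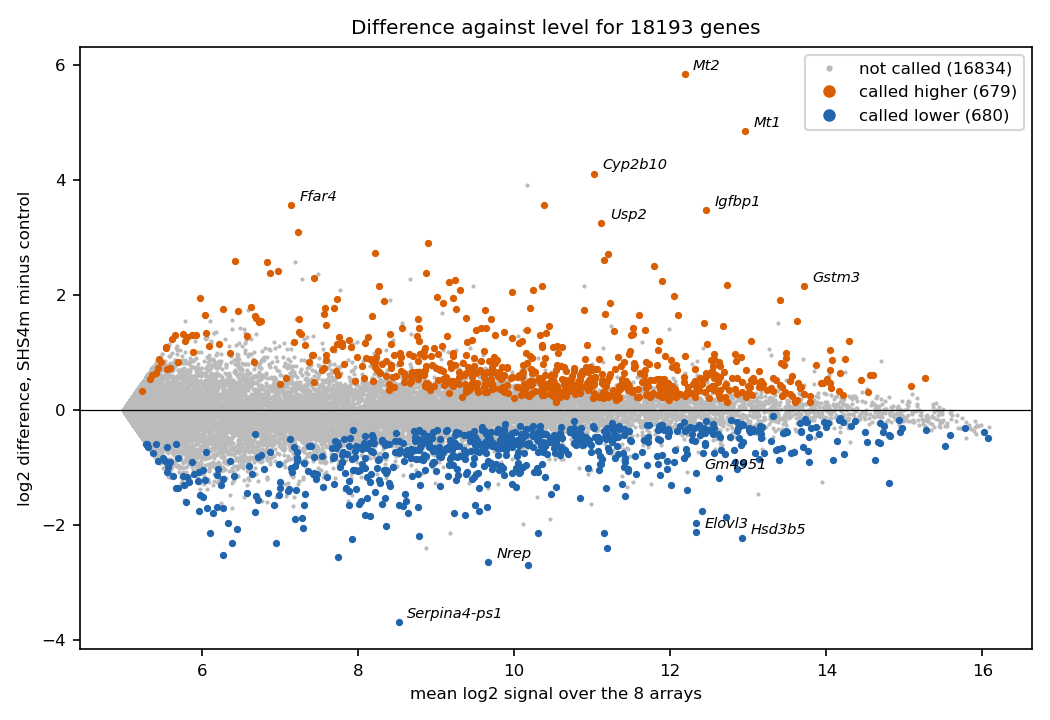
Each point is 1 gene, with its mean log2 signal over the 8 arrays on the x axis and its log2 difference, SHS4m minus control, on the y axis. Orange points are the 679 genes called higher and blue points the 680 called lower at the adjusted p, and grey points are the genes not called. Mt2 and Mt1 had the largest rises and Serpina4-ps1 the largest fall.

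How often a gene was called depended on its signal. Among 6371 genes with a mean log2 signal under 6, which is close to the floor of 32 applied to the signal, 0.785% were called. Among 1377 genes with a mean log2 signal of 12 or more, 20.6% were called. Gene lists made of strongly expressed liver genes therefore start from a higher share than 7.47%. Counts of called genes in the lists below stand against 3.73% of all genes called higher and 3.74% called lower. The 102 genes with a mean log2 signal of 15 or more also had a median log2 difference of -0.16, and 17.6% of them were above 0, so a fall of that size in a very bright gene is the common value at that level.

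**Figure D2:**
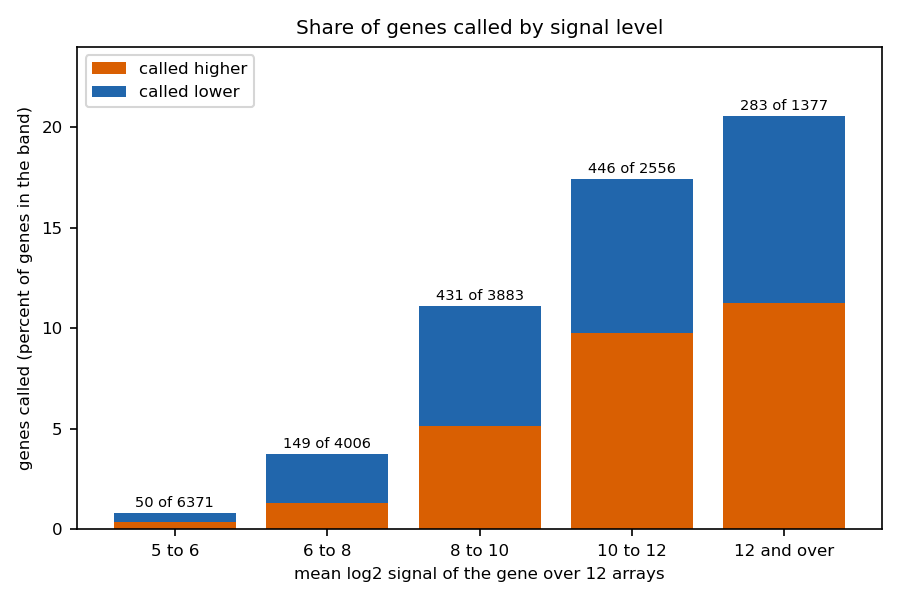
Bars give the percent of genes called at the adjusted p (y axis) in bands of mean log2 signal over 12 arrays (x axis), with genes higher in SHS4m mice in orange and genes lower in blue. The share rises from 0.785% in the dimmest band to 20.6% in the brightest.

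The metallothioneins, small cysteine-rich proteins that bind zinc, copper and cadmium, had the largest rises on the array. Mt2 signal was 754, 1923, 336 and 293 on the 4 control arrays and 37329, 32199, 36392 and 35045 on the SHS4m arrays. Mt1 signal was 1657, 6410, 644 and 714 in controls and 46753, 39850, 41594 and 43525 in SHS4m mice. For both genes every SHS4m array lay far above every control, and control replicate 2 stood above the other controls. The log2 differences were 5.84 for Mt2 (standard error 0.50, adjusted p = 0.000479 from limma) and 4.85 for Mt1 (standard error 0.61, adjusted p = 0.00259), or 57.3-fold and 28.8-fold. Mtf1, the transcription factor that senses zinc, did not pass the test (log2 difference -0.35, adjusted p = 0.398). Of the 17 measured metallothioneins and metal carriers, 3 rose and 1 fell, with a median log2 difference of -0.04. The rise of the zinc exporter Slc30a1 (1.47-fold) and the fall of the manganese exporter Slc30a10 (2.46-fold lower) were each lost when any 1 of 5 arrays was left out (adjusted p up to 0.0658 and 0.0888), any 1 of SHS4m replicates 66, 67 and 69 and control replicates 1 and 3 for Slc30a1 and any 1 of SHS4m replicates 66, 67 and 68 and control replicates 3 and 4 for Slc30a10.

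The promoter of Mt2 is shown because the gene had the largest rise and because metal response elements are known to lie before metallothionein genes. It is the stretch of 250 bases before the RefSeq gene start, chr8:94172368-94172617 on the plus strand of GRCm38.p6, with capitals marking the metal response core TGCACNC or TGCGCNC on either strand.
Mt2: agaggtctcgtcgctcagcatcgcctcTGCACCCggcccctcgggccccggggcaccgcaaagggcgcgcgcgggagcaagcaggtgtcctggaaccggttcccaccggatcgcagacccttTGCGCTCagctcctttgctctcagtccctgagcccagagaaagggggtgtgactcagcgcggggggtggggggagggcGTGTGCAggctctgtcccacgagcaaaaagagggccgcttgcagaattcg
The window from 250 bases before to 50 bases after the gene start held 4 such matches for Mt2 and 3 for Mt1. Of the 14452 genes with a RefSeq window here, 3.31% held 3 or more matches, and 36.3% held at least 1. Among the 15 metallothioneins and metal carriers with a window, 11 held at least 1 match (73.3%). A match of these letters is a description of the window and not a shown binding site.

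Enzymes of drug metabolism rose in several families. Cyp2b10, the P450 most used as a readout of the sensor CAR, had a signal of 432, 443, 403 and 812 on the control arrays and 8714, 8302, 8204 and 9485 on the SHS4m arrays. Control replicate 4 was the highest control for Cyp2b10, and the SHS4m arrays were close to one another. The difference was 17.3-fold (log2 4.11, standard error 0.23, adjusted p = 8.36e-05). In the list of 25 CAR and PXR targets 10 rose and none fell (40% called, against 7.47% of all genes), with a median log2 difference of 0.60. Of the 10, 7 kept their call whichever of the 8 arrays was left out. Cyp2c55 rose 2.55-fold (signal 875, 789, 827 and 925 against 1794, 2206, 2391 and 2370), and Cyp3a13 rose 2.22-fold (3819, 3970, 3358 and 4084 against 10045, 7497, 7340 and 9096). Both are P450s of the same families that handle drugs and fatty acids. The most abundant PXR target, Cyp3a11, had a log2 difference of -0.28 (adjusted p = 0.256), with all 4 SHS4m arrays below all controls.

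NRF2 targets, which neutralise electrophiles and oxidants, rose in 12 of 28 genes, and 1 fell (46.4% called, against 7.47% of all genes). Of the 12, 11 kept their call without any 1 array. The glutathione transferase Gstm3 had a signal of 6651, 5988, 6678 and 6201 in controls and 32075, 26009, 26971 and 28976 in SHS4m mice, 4.46-fold higher (log2 2.16, standard error 0.12, adjusted p = 8.43e-05). Gstm2, of the same mu class, went from 1868, 1595, 1578 and 1975 to 5864, 4416, 6132 and 5856, 3.16-fold. Neither gene's groups came near each other. Hmox1, which breaks down heme, was nearly constant in controls at 273, 277, 279 and 277 and spread over 2288, 1013, 654 and 2039 in SHS4m mice (4.79-fold, adjusted p = 0.00684). Cbr3, a carbonyl reductase, rose 5.97-fold from a level near the floor, and Abcc4, an exporter of conjugates, rose 3.13-fold (adjusted p = 0.00584 and 0.00841). Gclc, the catalytic subunit for glutathione synthesis, had a log2 difference of -0.32 and overlapping groups (adjusted p = 0.325). The call of Nqo1, a quinone reductase and the usual NRF2 readout (1.92-fold, adjusted p = 0.0274), ended without any 1 of SHS4m replicates 66, 67 and 68 and control replicates 3 and 4 (adjusted p up to 0.0752). In the promoter windows, the antioxidant response core TGACNNNGC on either strand was found in 11 of 23 NRF2 targets (47.8%) against 16.2% of all genes, and in 2 of the 10 that rose and have a window.

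The AHR list, which reads exposure to aromatic hydrocarbons, had 4 of 8 genes higher and none lower, or 2 without any 1 of SHS4m replicates 66, 67 and 69 and control replicates 1, 2 and 3. The share called was 50%, against 7.47% of all genes. Cyp1a2, a P450 that is already abundant in liver, moved from 30408, 30659, 28895 and 30390 to 41104, 39004, 39726 and 40845, a rise of 1.34-fold that was small but larger than the spread between arrays (adjusted p = 0.00392). Tiparp, an ADP-ribosyltransferase that dampens AHR, rose 1.69-fold (499, 492, 575 and 535 against 1041, 805, 939 and 774, adjusted p = 0.00318). Cyp1a1, the classical AHR target, was 86.2, 142, 101 and 128 in controls and 438, 404, 245 and 496 in SHS4m mice (3.41-fold, adjusted p = 0.0387), with no overlap between the groups. Its call ended without any 1 of SHS4m replicates 66, 67 and 69 and control replicates 1, 2, 3 and 4 (adjusted p up to 0.0982). The same held for the receptor gene Ahr (1.76-fold), without any 1 of SHS4m replicates 66, 67, 68 and 69 and control replicates 1, 2 and 3 (adjusted p up to 0.0745). Cyp1b1 stayed near the floor in both groups (log2 difference -0.12, adjusted p = 0.957).

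Among conjugating and other oxidising enzymes, 4 of 21 genes of the glucuronide and sulfate list rose and 2 fell. The sulfotransferases Sult1a1 and Sult1d1 rose 1.38-fold and 1.61-fold (adjusted p = 0.00176 and 0.0158). Ugt2b38, a glucuronosyltransferase, fell from 1623, 1331, 1499 and 1100 to 260, 566, 521 and 366 (3.36-fold lower, adjusted p = 0.0162), while its relative Ugt2b1 had a log2 difference of -0.08 (adjusted p = 0.71). Sult1e1, which inactivates estrogens, was under or near the floor on 3 of the 4 control arrays and reached 74.4, 120, 63.5 and 85.9 in SHS4m mice (2.3-fold after raising values to the floor, adjusted p = 0.0138, or 0.0522 in a fit of the 8 arrays alone). Of 8 flavin monooxygenases and aldehyde oxidases 4 rose (2 without SHS4m replicate 66 or 67 or control replicate 3 or 4) and 1 fell (none without control replicate 4), with Fmo1 1.47-fold and Xdh, which forms uric acid, 1.28-fold higher (adjusted p = 0.0126 and 0.0111), the latter not passing with the floor at the 25th percentile (adjusted p = 0.0887).

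In the iron and heme list, 4 of 25 genes rose and 1 fell. Scara5, a receptor that takes up ferritin, went from 252, 131, 125 and 225 to 1299, 1153, 996 and 1935 (7.47-fold, standard error 0.39 on log2 2.90, adjusted p = 0.00342). With the mean of its probe sets the log2 difference was 0.99 and the call ended (adjusted p = 0.0525). Tfr2, a sensor of transferrin iron, rose 1.46-fold with non-overlapping groups (adjusted p = 0.00485). Of 2 neighbouring enzymes of heme synthesis, Uros was 1.5-fold lower and Urod 1.21-fold higher (adjusted p = 0.00701 and 0.00176). Both calls ended with the mean of a gene's probe sets (adjusted p = 0.157 and 0.0899), and that of Urod also with the higher floor at the 25th percentile or with 32 added to the signal (adjusted p = 0.123 and 0.137). Hamp, the iron hormone hepcidin, did not pass the test (log2 difference -0.21, adjusted p = 0.436), and Tfrc, the receptor for transferrin, varied widely within both groups.

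**Figure D3:**
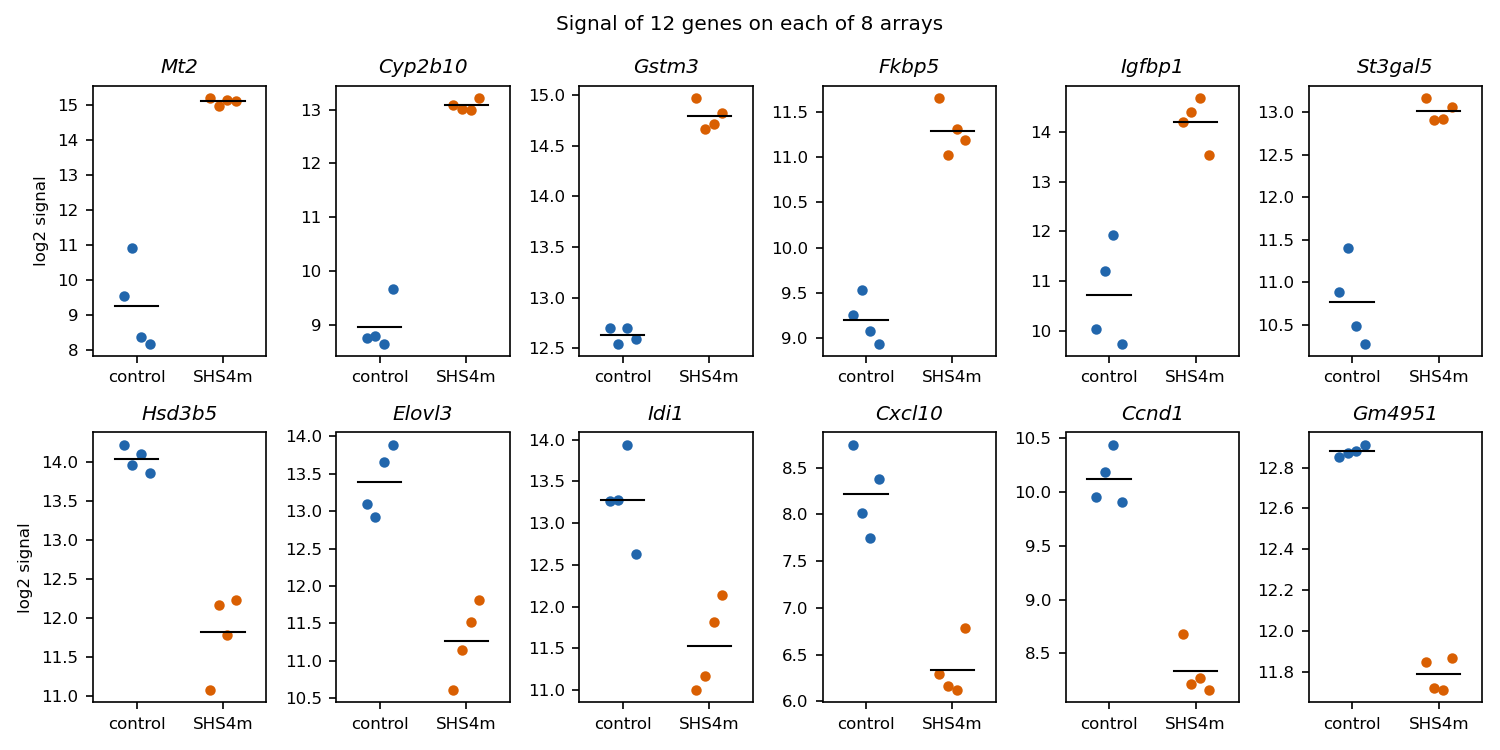
Each panel shows 1 gene, with log2 signal on the y axis (a separate scale for each panel), 1 point for each of 4 control (blue) and 4 SHS4m (orange) arrays, and the group mean as a line. For all 12 genes the groups do not overlap, with the upper panels higher and the lower panels lower in SHS4m mice.

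Genes that glucocorticoids induce had one of the highest median differences of all lists, a log2 difference of 1.21 over 22 genes, against -0.01 over all genes. Of the 22, 8 rose and none fell (36.4% called, against 7.47% of all genes), and 7 kept their call without any 1 array. The list holds Mt1, Mt2 and Igfbp1, which are also in other lists here. Fkbp5, a partner of the glucocorticoid receptor that is widely used as its readout, had a signal of 611, 742, 542 and 491 in controls and 3217, 2081, 2542 and 2329 in SHS4m mice (4.26-fold, log2 2.09, standard error 0.26, adjusted p = 0.00262). Zbtb16, a zinc finger transcription factor, went from 289, 158, 237 and 161 to 971, 1277, 1199 and 891 (5.26-fold, adjusted p = 0.00288). Every SHS4m array exceeded every control for both. The receptor gene Nr3c1 was level (log2 difference -0.04, adjusted p = 1), and Tsc22d3, a further classical target, was 682, 2986, 1639 and 1765 in controls against 3243, 2854, 3430 and 3653 and did not pass the test (adjusted p = 0.248), with control replicate 2 within the range of the SHS4m arrays. Control replicate 2 was also the highest control for Mt1, Mt2 and Fkbp5. Cebpd, a transcription factor induced by glucocorticoids and cytokines, rose from 259, 435, 280 and 265 to 1149, 1157, 1132 and 1254 (3.88-fold, adjusted p = 0.00063).

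Male-biased liver genes were lower where they passed the test. These are genes that pulses of growth hormone hold higher in males. Of 17 measured, 6 fell and none rose (35.3% called, against 7.47% of all genes). All 6 kept their call without any 1 array, and the median log2 difference of the list was -0.60. Hsd3b5, a steroid-reducing enzyme, fell from 19102, 15981, 17540 and 14830 to 2159, 4620, 3511 and 4817 (4.66-fold lower, log2 -2.22, standard error 0.25, adjusted p = 0.00165). Elovl3, a fatty acid elongase, was 8749, 7760, 12906 and 15164 in controls and 1561, 2258, 2922 and 3599 in SHS4m mice (4.35-fold lower, adjusted p = 0.00396). In SHS4m mice replicate 66 was the lowest for both. Slco1a1, an uptake carrier for bile acids and steroid conjugates, fell 3.61-fold (13210, 12298, 13462 and 12371 against 1900, 4329, 3462 and 5578, adjusted p = 0.00527). The serpin Serpina12 (vaspin) fell 4.4-fold (adjusted p = 0.00719), and Ugt2b38 is described above.

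Of 12 female-biased genes 3 rose and none fell (median log2 difference 0.74), and none was called without SHS4m replicate 66, control replicate 2 or control replicate 3. Cyp2b9, which is also a CAR target, had a signal of 320, 274, 166 and 618 in controls and 2616, 866, 1414 and 924 in SHS4m mice (4.26-fold, adjusted p = 0.033), and its call ended without any 1 of SHS4m replicates 66 and 68 and control replicates 1, 2 and 3 (adjusted p up to 0.0823). Within the growth hormone axis, the receptor Ghr was 1.35-fold lower (33592, 33852, 33352 and 31744 against 25096, 22756, 24155 and 26297, adjusted p = 0.00288) and its main product Igf1 had overlapping groups (log2 difference -0.13, adjusted p = 0.446). Igfbp1, which binds insulin-like growth factors in plasma and is raised by fasting and stress hormones, went from 1045, 2335, 3896 and 853 to 18900, 21532, 26194 and 11784 (11.2-fold, log2 3.48, standard error 0.66, adjusted p = 0.016). Onecut1, a hepatocyte factor that growth hormone regulates, was 6.47-fold lower (adjusted p = 0.034), and its call ended without any 1 of SHS4m replicates 67 and 68 and control replicates 1, 2, 3 and 4 (adjusted p up to 0.0889). By RT-qPCR the paper also reports a fall of Onecut1 at the end of the exposure.

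Some genes of glucose production rose. Of 21 genes of gluconeogenesis and its fasting regulators 7 rose and 1 fell (median log2 difference 0.48), and 6 of the 7 kept their call without any 1 array. Pck1, which commits carbon to glucose, was 11485, 17932, 10564 and 13999 in controls and 29470, 31384, 32014 and 28309 in SHS4m mice (2.29-fold, adjusted p = 0.0126). The coactivator Ppargc1a went from 519, 544, 409 and 302 to 1385, 1618, 1901 and 1017 (3.34-fold, adjusted p = 0.00422). Slc37a4, which carries glucose 6-phosphate into the endoplasmic reticulum, was 3582, 4074, 3001 and 2603 against 9496, 9954, 8385 and 9824 (2.87-fold, adjusted p = 0.000796). All 3 separated the groups completely. G6pc, the phosphatase that releases glucose, was also higher on every SHS4m array but did not pass the test (2.09-fold, adjusted p = 0.113). In the list of 24 glycolysis and glycogen genes 2 rose and 1 fell, with Pdk2, a kinase that switches off pyruvate oxidation, 1.67-fold higher (1466, 1479, 1234 and 1250 against 2384, 2326, 2254 and 2080, adjusted p = 0.00206). The call of Pklr, the liver pyruvate kinase (1.66-fold lower, adjusted p = 0.0356), ended without any 1 of SHS4m replicates 66, 67, 68 and 69 and control replicates 1, 2 and 3 (adjusted p up to 0.0974). The sources used here give neither the time of day of the harvest nor the last feeding, so differences in either cannot be told apart from the exposure for fasting, glucocorticoid and clock genes. The paper also reports that exposed mice gained little weight during the exposure and had lost liver glycogen at its end. The part of weight and glycogen in these genes was not tested.

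Lipid genes moved in both directions. Of 22 lipogenic genes 6 fell and none rose, with a median log2 difference of -0.61, but 3 of the 6 calls ended without SHS4m replicate 67. The elongases Elovl5 and Elovl2, which build polyunsaturated fatty acids, kept theirs. Elovl5 was 24972, 21605, 25756 and 21390 in controls and 11471, 12036, 12401 and 16123 in SHS4m mice (1.81-fold lower, adjusted p = 0.00445), and Elovl2 was 14425, 13207, 13601 and 12710 against 8144, 8589, 8680 and 8370 (1.6-fold lower, adjusted p = 0.0013). The master regulator Srebf1 had a log2 difference of -0.07 and fatty acid synthase, Fasn, one of -0.69, neither past the test (adjusted p = 0.989 and 0.281). Control replicate 3 had the highest control signal for both, 8199 and 6115.

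Of 29 genes of triglyceride and lipid droplets 6 were called higher and 2 lower, but the list as a whole did not lean upward. The median log2 difference was -0.02, with 15 members below 0 and 14 above. The droplet coat gene Plin2 was called lower. Its call ended without any 1 of SHS4m replicates 67, 68 and 69 and control replicates 1 and 2 (adjusted p up to 0.0831). Plin5, which ties droplets to mitochondria, went from 1745, 1709, 2028 and 2824 to 4636, 5659, 5199 and 5870 (2.62-fold, log2 1.39, standard error 0.19, adjusted p = 0.0036). Plin4 rose 4.91-fold and the acyltransferase Gpat3 2.63-fold (adjusted p = 0.0101 and 0.0154). The lipase Pnpla2, which starts triglyceride breakdown, was 1.86-fold higher while its activator Abhd5 was 1.48-fold lower (adjusted p = 0.00428 and 0.0112). Each of these calls rests on the brightest probe set, and with the mean of a gene's probe sets neither passed (log2 0.38 and -0.08, adjusted p = 0.347 and 0.673). Lpin1, a phosphatidate phosphatase and coactivator, was 1735, 3330, 986 and 856 in controls and 7858, 7581, 7895 and 10772 in SHS4m mice (5.68-fold, adjusted p = 0.0285), and its call ended without any 1 of SHS4m replicates 66, 67, 68 and 69 and control replicates 1, 3 and 4 (adjusted p up to 0.0804). A rise of Lpin1 at the end of the exposure is also reported in the paper by RT-qPCR. Of 38 genes of fatty acid oxidation and other PPAR alpha targets, 3 rose and 5 fell, with 1 rise called without SHS4m replicate 66 or 67 or control replicate 3 or 4, and 2 falls without SHS4m replicate 67 or 69 or control replicate 1 or 2. The peroxisomal thiolase Acaa1b (60206, 57320, 57164 and 53626 against 42266, 41771, 41609 and 43490) and the isomerase Eci1 were 1.35-fold and 1.3-fold lower, and with each array centred on its median neither passed (adjusted p = 0.0565 and 0.154). Ppara and Cpt1a overlapped between the groups.

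All 24 measured genes of cholesterol synthesis and uptake had a log2 difference below 0, from -1.75 to -0.02, with a median of -0.71. Of these 24, 6 passed the test, against 3.74% of all genes that were called lower. All SHS4m arrays were below all controls for 14 of the 24, against 8.31% of all genes. The count of called genes was 3 without SHS4m replicate 66 or without control replicate 3 and up to 9 without another array. Idi1, an enzyme of the isoprenoid steps, was 9866, 9907, 15691 and 6352 in controls and 2048, 2298, 3608 and 4517 in SHS4m mice (3.36-fold lower, log2 -1.75, standard error 0.32, adjusted p = 0.0144). Sc5d, which acts late in the pathway, was 11097, 11296, 15919 and 10961 against 6814, 6654, 7359 and 8290 (1.68-fold lower, adjusted p = 0.0132). Control replicate 3 was the highest array for both. The median of the list on each array, relative to each gene's control mean, was -0.21 to 0.50 log2 units in controls and -0.93 to -0.33 in SHS4m mice. Srebf2, the transcription factor of the pathway, did not pass (log2 difference -0.14, adjusted p = 0.826).

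**Figure D4:**
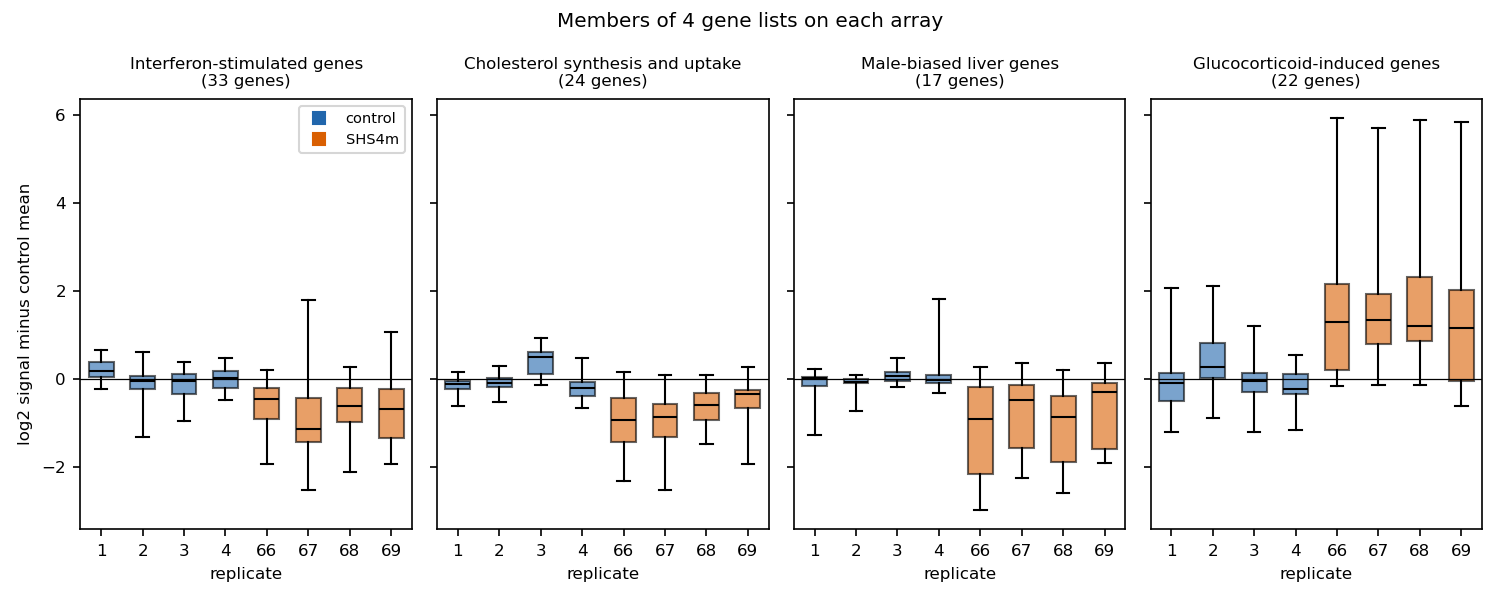
Box plots show, for each of 8 arrays (x axis, replicate number, control in blue and SHS4m in orange), the log2 signal of the members of 4 gene lists relative to each gene's control mean (y axis). Boxes span the quartiles with the median as a line, and whiskers reach the lowest and highest member. In the first 3 lists the SHS4m medians lie below all control medians, and in the glucocorticoid list they lie above.

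Bile acid genes were split. Of 29 measured, 4 rose and 8 fell, and 3 and 5 of these kept their call without any 1 array (5 falls were called without SHS4m replicate 67). Nr0b2 (SHP), a repressor that bile acids induce, fell from 3377, 2233, 2905 and 4395 to 796, 1475, 1447 and 825 (2.88-fold lower, adjusted p = 0.0122). Nr5a2 (LRH-1), a nuclear receptor of bile acid genes, was tight within each group at 3127, 3071, 2881 and 3042 against 1535, 1661, 1595 and 1546 (1.91-fold lower, log2 -0.94, standard error 0.08, adjusted p = 0.000602). Both act on Cyp7a1, the rate-limiting enzyme of bile acid synthesis, which itself varied from 461 to 2709 in SHS4m mice and did not pass (adjusted p = 0.964). Cyp39a1, which hydroxylates oxysterols, rose from 567, 449, 842 and 750 to 2332, 2146, 2073 and 2171 (3.44-fold, adjusted p = 0.00166). The sterol export pair Abcg5 and Abcg8 rose 2.31-fold and 1.43-fold (adjusted p = 0.00088 and 0.00973). Csad, which makes the precursor of the taurine used to conjugate bile acids, fell from 4354, 6366, 7619 and 3915 to 585, 1176, 1462 and 1090 (5.24-fold lower, adjusted p = 0.00347).

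Of 24 lipoprotein genes 4 rose and 1 fell. Apoa4, an apolipoprotein of fasting and fat transport, went from 2230, 2242, 2573 and 2904 to 10446, 7583, 5570 and 8483 (3.16-fold, adjusted p = 0.00327), and the HDL receptor Scarb1 rose 1.45-fold (adjusted p = 0.00893). Apob, the backbone of VLDL, and Mttp, which loads it with fat, overlapped between groups. The leptin receptor Lepr was 2.27-fold higher (adjusted p = 0.0154, or 0.0583 with the mean of its probe sets). Among 32 phospholipid and sphingolipid genes 3 rose and 3 fell. St3gal5, which makes the first ganglioside, was 1892, 2701, 1436 and 1242 in controls and 9179, 7707, 7783 and 8580 in SHS4m mice (4.77-fold, log2 2.25, standard error 0.22, adjusted p = 0.0008), and S1pr1, a receptor for sphingosine 1-phosphate, was 2.18-fold lower (adjusted p = 0.0105). These 2 kept their call whichever array was left out, while the rises numbered 1 without SHS4m replicate 67 or control replicate 3 and the falls 1 without SHS4m replicate 66, 67 or 68.

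Clock genes differed between the groups and also among the controls. Of 26 core clock and output genes 7 rose and 1 fell, with a median log2 difference of 0.49, and without SHS4m replicate 67 the rises numbered 4. Usp2, a deubiquitinase with strong daily rhythm, was 973, 1690, 468 and 346 in controls and 6194, 8998, 7753 and 5205 in SHS4m mice (9.58-fold, log2 3.26, standard error 0.44, adjusted p = 0.0035). Upp2, a rhythmic uridine phosphorylase, was 8082, 8510, 4332 and 3269 against 21019, 21193, 22061 and 19721 (3.76-fold, adjusted p = 0.0044). Clock, of the activating limb, was 800, 720, 904 and 1139 against 411, 480, 489 and 360 (2.03-fold lower, adjusted p = 0.0119). For Usp2 and Upp2, control replicates 1 and 2 were higher than replicates 3 and 4. The same split was present in Dbp, a direct clock output, at 7321, 7943, 2376 and 1364 in controls against 3907, 6128, 6116 and 4286 in SHS4m mice (adjusted p = 0.764), and reversed in Arntl (BMAL1), at 142, 100, 363 and 434 against 68.6, 64, 35.4 and 154 (adjusted p = 0.158). Per1 did not pass either (212, 858, 136 and 325 against 934, 1144, 1151 and 709, adjusted p = 0.0753). The paper lists Per1 as higher in exposed mice and also reports its rise by RT-qPCR.

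Ciart, a repressor of the clock's activating limb, was 199, 260, 59.9 and 57 in controls and 581, 889, 1443 and 456 in SHS4m mice (6.62-fold, adjusted p = 0.0215). Its call ended without any 1 of SHS4m replicates 67 and 68 and control replicates 3 and 4 (adjusted p up to 0.0591). Its promoter is shown because CLOCK and BMAL1 are known to bind the E-box CACGTG, marked in capitals in the 250 bases before the RefSeq gene start (chr3:95882229-95882478, minus strand, GRCm38.p6).
Ciart: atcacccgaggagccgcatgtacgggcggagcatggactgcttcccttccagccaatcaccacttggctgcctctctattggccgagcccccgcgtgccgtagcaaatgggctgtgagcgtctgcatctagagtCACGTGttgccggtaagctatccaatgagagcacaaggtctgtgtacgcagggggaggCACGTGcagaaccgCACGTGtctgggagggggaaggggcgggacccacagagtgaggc
The window held 3 E-boxes, a number reached by 0.131% of the 14452 genes read. At least 1 E-box was present in 6 of 22 clock genes with a window (27.3%) and in 10.2% of all genes.

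Acute phase genes rose in 10 of 32 and fell in 1 (34.4% called, against 7.47% of all genes), with 9 of the 10 called without any 1 array. The median log2 difference was 0.16. Lcn2, which binds bacterial iron carriers, went from 551, 583, 141 and 513 to 10668, 2208, 2459 and 7765 (11.8-fold, log2 3.56, standard error 0.66, adjusted p = 0.0149). Orm2, an orosomucoid, went from 777, 998, 600 and 1511 to 9076, 4242, 3737 and 9105 (6.57-fold, adjusted p = 0.00612). SHS4m replicates 66 and 69 were the highest for both genes, as they were for Hmox1. Saa1, serum amyloid A, was 6522, 6038, 3885 and 10582 in controls and 34117, 5690, 25442 and 21584 in SHS4m mice, where replicate 67 lay within the controls and the test was not passed (adjusted p = 0.169). Orm1, whose level was already high, overlapped. The receptors Il6ra and Il1r1 rose 3.36-fold (1011, 1156, 950 and 1061 against 3639, 3982, 3467 and 2996) and by 1.42 on the log2 scale (adjusted p = 0.00144 and 0.00805), whereas Il6st, the shared signalling chain for interleukin 6, was 1.47-fold lower (adjusted p = 0.00302). The call of Il6st ended with the mean of its probe sets (log2 -0.29, adjusted p = 0.167). Of 36 complement and coagulation genes 3 rose and 2 fell, and C9, of the membrane attack complex, at 31798, 32349, 32121 and 31824 against 21018, 21980, 19649 and 24446 (1.48-fold lower, adjusted p = 0.0144), was the one that kept its call whichever array was left out. The 3 rises were all lost without SHS4m replicate 66, control replicate 1 or control replicate 3.

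Among interferon-stimulated genes the calls were all falls. Of 33 measured 13 fell and none rose, against 3.74% of all genes that fell, and 32 of the 33 had a log2 difference below 0 (median -0.63). The count was 9 without SHS4m replicate 67 or control replicate 4, and 9 of the 13 genes kept their call without any 1 array. Cxcl10, a chemokine that draws T cells, was 429, 258, 214 and 334 in controls and 78.5, 71.6, 69.6 and 111 in SHS4m mice (3.68-fold lower, log2 -1.88, standard error 0.23, adjusted p = 0.00217). Irgm2, an immunity-related GTPase, was 1765, 1140, 921 and 1459 against 522, 299, 467 and 392 (3.12-fold lower, adjusted p = 0.0132). No SHS4m array reached the lowest control for either gene. Gbp6, a guanylate-binding protein, fell 3.45-fold and Oasl2, an oligoadenylate synthetase-like protein, 3.36-fold, with Oasl2 at the floor on 3 of 4 SHS4m arrays (adjusted p = 0.00404 and 0.0075). Cxcl9, a related chemokine, overlapped between groups (1025, 678, 487 and 1091 against 497, 168, 182 and 230), and its call (adjusted p = 0.0344) ended without any 1 of SHS4m replicates 67, 68 and 69 and control replicates 1, 2 and 4 (adjusted p up to 0.092). Irf7, a regulator of the response, was level (log2 difference -0.01).

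The promoters of Cxcl10 and Irgm2 are shown because both fell and both hold the interferon-stimulated response core (GAAA, any 2 bases, GAAA), in capitals, in the 250 bases before the RefSeq gene start (GRCm38.p6, Cxcl10 at chr5:92348890-92349139 on the minus strand, Irgm2 at chr11:58214727-58214976 on the plus strand).
Cxcl10: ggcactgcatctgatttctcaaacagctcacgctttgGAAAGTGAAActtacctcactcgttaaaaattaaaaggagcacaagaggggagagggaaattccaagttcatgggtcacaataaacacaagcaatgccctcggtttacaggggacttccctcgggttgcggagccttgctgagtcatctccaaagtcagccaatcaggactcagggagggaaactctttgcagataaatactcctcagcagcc
Irgm2: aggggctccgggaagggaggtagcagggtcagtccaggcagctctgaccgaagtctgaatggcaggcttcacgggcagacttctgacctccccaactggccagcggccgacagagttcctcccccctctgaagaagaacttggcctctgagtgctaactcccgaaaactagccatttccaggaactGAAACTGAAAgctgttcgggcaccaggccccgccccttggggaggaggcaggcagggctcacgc
Searched on both strands, the core was present in 12 of the 25 interferon-stimulated genes with a window (48%), in 6 of the 11 that fell and have one (54.5%), and in 3.63% of all genes.

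Markers of macrophages moved in both directions, with 9 of 13 below 0 and 4 above. Among 13 Kupffer cell and macrophage markers 2 rose and 2 fell, with 1 rise whichever of the 8 arrays was left out, and their median on each array lay -0.16 to 0.14 log2 units from the control mean in controls and -0.51 to -0.18 in SHS4m mice. Their summed signal was 21978 to 27707 in controls and 17967 to 22596 in SHS4m mice. Clec4f, the lectin that defines Kupffer cells, was 1765, 1600, 1814 and 1960 in controls and 1438, 1088, 1179 and 1309 in SHS4m mice (1.43-fold lower, adjusted p = 0.0173, or 0.0515 with each array centred on its median), and Lyz2 was 1.7-fold lower (adjusted p = 0.0099). Marco, a scavenger receptor of macrophages, was higher, at 170, 239, 124 and 156 against 530, 335, 1030 and 829 (3.73-fold, adjusted p = 0.0137). The other rise, of Cd163, was lost whichever of the 8 arrays was left out (adjusted p up to 0.106). No MHC class II gene of 11 passed (median log2 difference -0.53), and none of the 7 B and plasma cell markers or 9 T and NK cell markers did, though 7 and 8 of them had differences below 0. Summed over 9 markers, T and NK cell signal was 375.9 to 777.6 in controls and 326.9 to 505 in SHS4m mice. In whole liver, fewer cells of a type and less RNA per cell cannot be told apart, and the part of these cells in the interferon-stimulated genes was not tested.

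Of 26 genes of NF-kB and cytokine signalling 2 rose and none fell, and both kept their call. Vcam1, an adhesion molecule for leukocytes, was 329, 411, 296 and 300 in controls and 1054, 1199, 1281 and 973 in SHS4m mice (3.38-fold, log2 1.76, standard error 0.17, adjusted p = 0.000676). Tnfrsf1b, a receptor for tumor necrosis factor, was 2.63-fold higher (adjusted p = 0.0161). The subunit Rela was level (log2 difference -0.12, adjusted p = 0.575).

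Genes of amino acid breakdown rose in 12 of 48 and fell in 2, and 8 of the 12 kept their call without any 1 array. In all 29.2% of the list was called, against 7.47% of all genes. Among genes with a mean log2 signal of 12 or more the share was 20.6%. The list's median log2 difference was 0.07, with 28 members above 0 and 20 below. Got1, the cytosolic aspartate aminotransferase, was 2058, 2606, 1684 and 2259 in controls and 8669, 7997, 8224 and 8716 in SHS4m mice (3.95-fold, log2 1.98, standard error 0.24, adjusted p = 0.00209). Gpt, the alanine aminotransferase, was 5665, 5887, 5236 and 5555 against 11678, 10608, 10288 and 9954 (1.9-fold, adjusted p = 0.000496, or 0.0722 with the mean of its probe sets), and Prodh, which opens proline breakdown, rose 1.84-fold (adjusted p = 0.00613). The groups of Got1 and Gpt lay wide apart. In the urea cycle, Asl rose 1.98-fold while Otc was 1.3-fold lower (adjusted p = 0.00366 and 0.0116) and Cps1, the entry enzyme, did not pass (log2 difference -0.02). Otc was among the bright genes, at 37239, 35819, 34740 and 36100 against 28542, 26248, 28379 and 27275, and its call ended with each array centred on its median (adjusted p = 0.0839). Tat, a glucocorticoid target that degrades tyrosine, was higher on every SHS4m array than on any control without passing the test. Of 15 genes of nucleoside breakdown 3 rose and 2 fell, among them Upb1, which ends pyrimidine breakdown (1.33-fold higher), and Pnp, a purine phosphorylase (1.52-fold lower), with adjusted p = 0.00376 and 0.00696 (0.0508 for Upb1 with 32 added to the signal).

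**Figure D5:**
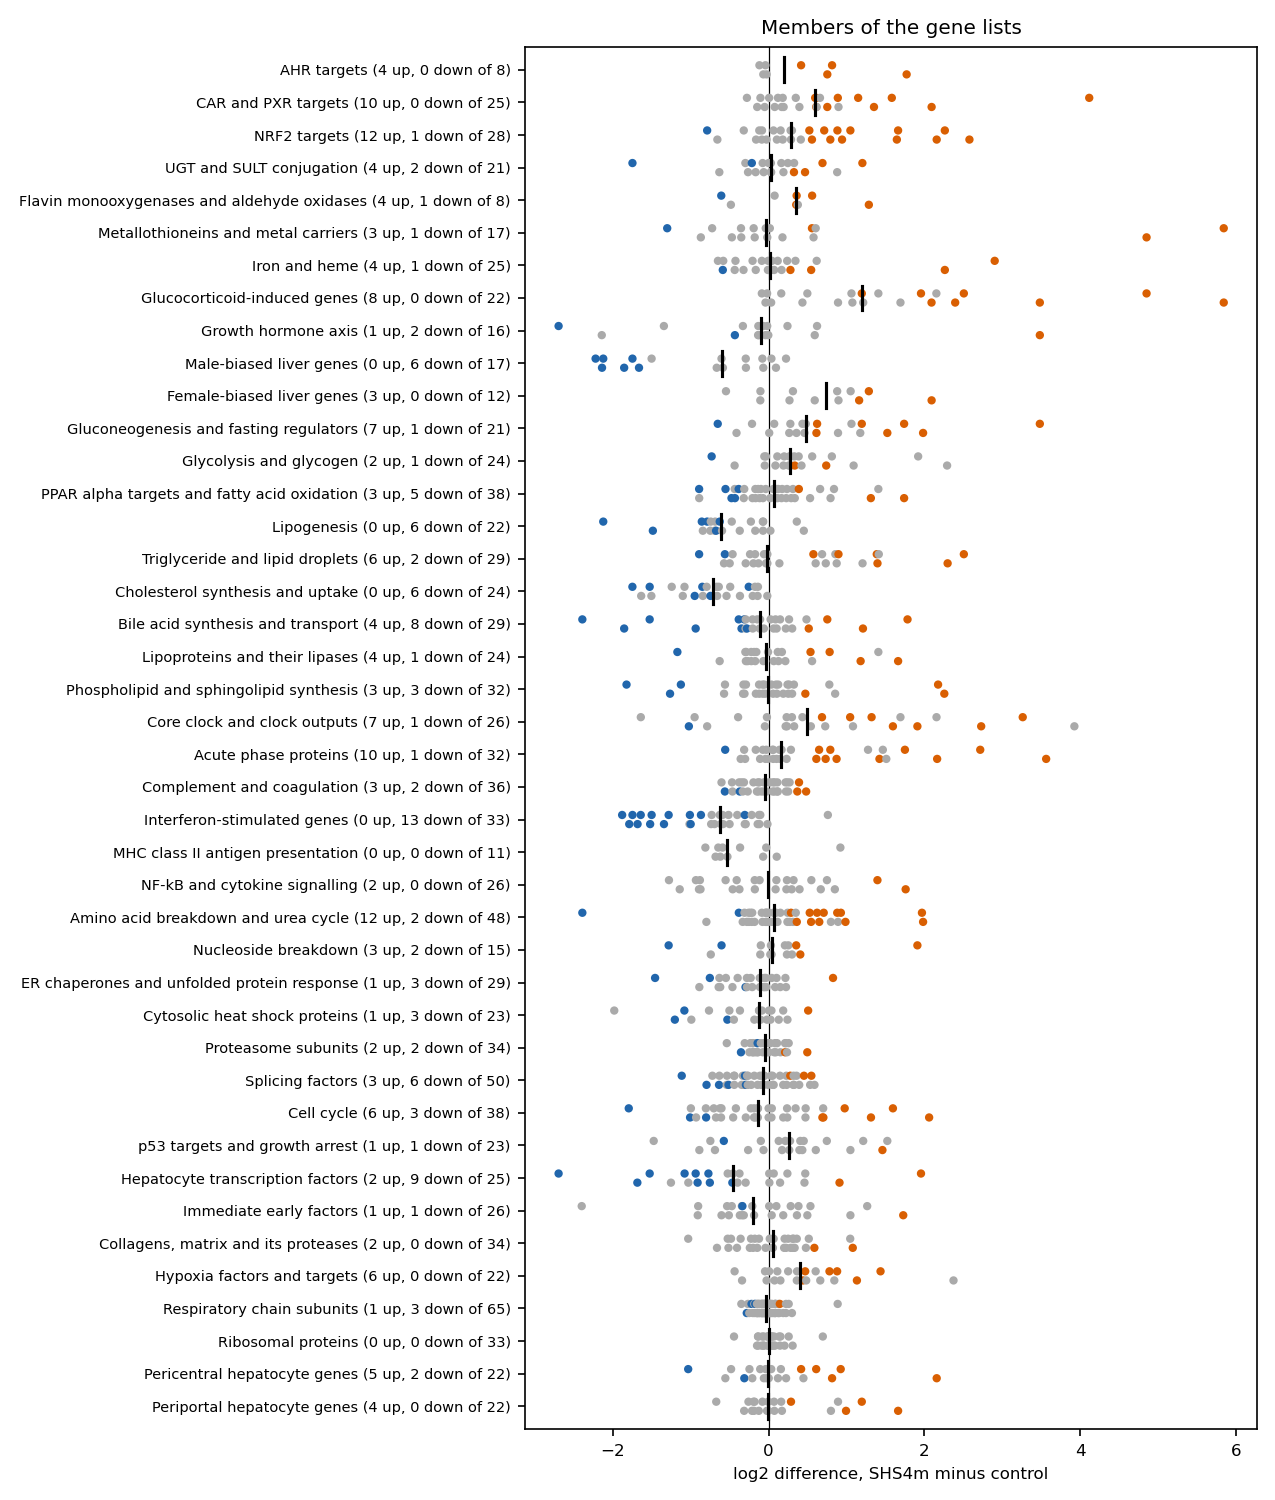
Each row is 1 gene list, each point 1 measured member at its log2 difference, SHS4m minus control (x axis), and each black bar the list's median. Orange points were called higher and blue points called lower at the adjusted p, and the counts are given beside each name. Interferon-stimulated, cholesterol, lipogenic and male-biased genes lie mostly to the left of 0 and glucocorticoid-induced genes to the right.

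Among protein folding genes, 13.8% of the endoplasmic reticulum list and 17.4% of the heat shock list were called, against 7.47% of all genes. Of 29 chaperones of the endoplasmic reticulum and unfolded protein response genes 1 rose and 3 fell. Xbp1, a transcription factor of this response, was 28978, 20971, 25270 and 25125 in controls and 14564, 14158, 15316 and 15107 in SHS4m mice (1.69-fold lower, adjusted p = 0.00323), and calnexin, Canx, was 1.23-fold lower (adjusted p = 0.0149, or 0.193 with centring). The main chaperone Hspa5 was below all controls on every SHS4m array without passing (20242, 22465, 30543 and 25751 against 17109, 18523, 15030 and 16437, adjusted p = 0.0758). Of 23 cytosolic heat shock genes 1 rose and 3 fell, and the falls were all lost without SHS4m replicate 66, 67 or 68 or control replicate 3 or 4. Hsph1, a nucleotide exchange factor, was 2.3-fold lower (adjusted p = 0.0229), and its call ended without any 1 of SHS4m replicates 66, 67 and 68 and control replicates 2, 3 and 4 (adjusted p up to 0.0653). Among 34 proteasome subunits 2 rose and 2 fell, with a median log2 difference of -0.05, and Psmd13 (1.41-fold higher, adjusted p = 0.0149) was the one to keep its call whichever array was left out.

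In the nucleus, 3 of 50 splicing genes rose and 6 fell, and the 3 rises were lost without SHS4m replicate 66 or 67 or control replicate 3 or 4. The 4 falls named next kept their call whichever array was left out. The RNA helicase Ddx17 fell from 4040, 3702, 4626 and 5664 to 1993, 2084, 2190 and 1960 (2.17-fold lower, adjusted p = 0.00176). Srsf1, Hnrnpf and Hnrnph1, which bind exons and introns to steer splicing, were 1.74-fold, 1.55-fold and 1.43-fold lower (adjusted p = 0.0111, 0.00239 and 0.0172). With the mean of a gene's probe sets Hnrnpf and Hnrnph1 did not pass (log2 -0.22 and -0.41, adjusted p = 0.0846 and 0.197).

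Of 38 cell cycle genes 6 rose and 3 fell. The 3 falls kept their call without any 1 array, as did 3 of the rises (3 were called without SHS4m replicate 68 or 69 or control replicate 3). Ccnd1 (cyclin D1), which starts entry into the cycle, was 992, 1169, 1391 and 961 in controls and 411, 297, 308 and 285 in SHS4m mice (3.47-fold lower, log2 -1.79, standard error 0.17, adjusted p = 0.000721). The replication helicase subunits Mcm4 and Mcm5 were 1.74-fold and 2.01-fold lower (adjusted p = 0.00565 and 0.0089), and the call of Mcm5 ended with the mean of its probe sets (log2 -0.36, adjusted p = 0.151). By contrast Rrm2, which makes deoxynucleotides, rose from 701, 494, 503 and 338 to 2182, 2040, 1708 and 2341 (4.17-fold, adjusted p = 0.00413), and thymidine kinase, Tk1, rose 1.97-fold (adjusted p = 0.00596). Mki67, the proliferation marker, was near the floor on most arrays of both groups (log2 difference -0.45, adjusted p = 0.577). Cdkn1a (p21), a cyclin-dependent kinase inhibitor, was above all controls on every SHS4m array without passing (147, 192, 296 and 334 against 574, 593, 641 and 369, adjusted p = 0.076), and 1 of 23 genes in the p53 and growth arrest list rose and 1 fell. The rise was lost without any 1 of SHS4m replicates 67 and 68 and control replicates 1, 3 and 4, and the fall without any 1 array but SHS4m replicate 68.

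Of 25 transcription factors of hepatocytes 9 were called lower (36%), against 3.74% of all genes, and 2 higher, with a median log2 difference of -0.46. Among genes with a mean log2 signal of 10 to 12, 17.45% were called in either direction. The list was chosen with earlier results of these data known. Of the 9, 6 kept their call without any 1 array, which was also the count without control replicate 4. Foxa1, which opens liver enhancers, was 1871, 1121, 1628 and 1265 in controls and 572, 424, 266 and 629 in SHS4m mice (3.21-fold lower, adjusted p = 0.0119), and its relative Foxa3 was 1536, 1472, 1681 and 1613 against 659, 702, 784 and 852 (2.11-fold lower, adjusted p = 0.0101). The groups were clear of each other for both. Hnf4a, the central factor of the network, was not among them (log2 difference 0.24, adjusted p = 0.345). Of 26 immediate early genes 1 rose and 1 fell, with the rise lost without SHS4m replicate 67 or any 1 control and the fall without SHS4m replicate 66, 67 or 68 or control replicate 3. Egr1 was 931, 672, 2320 and 933 in controls and 206, 351, 168 and 144 in SHS4m mice and did not pass (log2 difference -2.40, adjusted p = 0.0699), although the groups did not overlap, and control replicate 3 was the highest array.

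In the hypoxia list 6 of 22 genes rose and none fell (median log2 difference 0.40), and 4 kept their call without any 1 array. Aldoa, an aldolase of glycolysis, was 1615, 1771, 2023 and 1791 in controls and 4998, 5263, 4095 and 5156 in SHS4m mice (log2 difference 1.44, standard error 0.11, adjusted p = 0.000339). The mitophagy receptor Bnip3 and the kinase Pdk1 rose 1.84-fold and 1.72-fold, and the oxygen-regulated factor Epas1 (HIF-2 alpha) 1.38-fold (adjusted p = 0.00584, 0.00807 and 0.00272). Hif1a, Vegfa and Car9 overlapped between the groups on the brightest probe set of each gene. The paper lists Hif1a as lower in exposed mice. Of 34 matrix genes 2 rose and none fell. Timp3, an inhibitor of matrix proteases, was 2.11-fold higher (255, 304, 362 and 368 against 827, 674, 661 and 559, adjusted p = 0.00376, or 0.0587 with the mean of its probe sets), and the collagens Col1a1 and Col3a1 did not pass (log2 difference -0.12 and -0.52).

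Shares called were 6.15% in the respiratory chain list, 31.8% in the pericentral list and 18.2% in the periportal list, against 7.47% of all genes. Of 65 respiratory chain subunits 1 rose and 3 fell, with a median log2 difference of -0.04, and the falls of Ndufb9 (1.16-fold) and Atp5j (1.21-fold) did not pass with each array centred on its median (adjusted p = 0.416 and 0.176). None of 33 ribosomal protein genes was called. Of 22 pericentral genes 5 rose and 2 fell, and of 22 periportal genes 4 rose and none fell, with a median log2 difference of -0.01 in both lists, and a shift between the lists was not tested. Both pericentral falls were lost without SHS4m replicate 69. The rises included Cyp1a2 and Gstm3 on the central side and Pck1 and Apoa4 on the portal side, and the carriers Slc13a3 (1.9-fold, central) and Slc7a2 (1.99-fold, portal). The call of Slc13a3 ended with the mean of its probe sets (log2 0.43, adjusted p = 0.0536). Glul, which marks the cells around the central vein, was level (log2 difference -0.02).

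The labels name no cell type. Summed over 9 hepatocyte markers, signal was 358344 to 410855 in controls and 339472 to 375408 in SHS4m mice. Alb signal was 65292, 63547, 65470 and 55029 in controls and 55365, 50230, 45909 and 49033 in SHS4m mice, among the brightest on the array, and 1 of the 9 hepatocyte markers, the receptor Asgr1, was called (1.27-fold higher, adjusted p = 0.000738, or 0.0638 with the floor at the 25th percentile). No sinusoidal endothelial, stellate, cholangiocyte, neutrophil, adipocyte or pancreas marker passed the test. Of the pancreas markers 2 were under the floor on all 8 arrays. The erythroid membrane protein Slc4a1 was 2.56-fold higher (adjusted p = 0.00566), while Alas2 and Hba-a1 of the same 4-gene list overlapped. The 3' to 5' ratio of actin probe sets, which rises as RNA degrades, was 3.24 to 3.90 in controls and 3.90 to 4.64 in SHS4m mice, while that of Gapdh overlapped between the groups. Its part in the differences was not tested.

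Several of the largest differences lay outside the lists. Ffar4, which senses long-chain fatty acids, was 19, 64.9, 43 and 12 in controls, 2 of them under the floor, and 481, 659, 394 and 454 in SHS4m mice (11.9-fold after raising values to the floor, adjusted p = 0.000359). Mfsd2a, which carries lysophospholipids and is raised by fasting, went from 801, 2325, 520 and 719 to 6724, 5996, 5525 and 4474 (6.15-fold, adjusted p = 0.00837). The transporter Slc16a5 and Fam107a, a stress-responsive actin-binding protein, rose 8.56-fold and 6.07-fold, each with 1 or more controls at the floor (adjusted p = 0.00596 and 0.00176). Among the falls, the serpin pseudogene Serpina4-ps1 was 2545, 1261, 1403 and 662 in controls and 74.1, 82.6, 79.1 and 231 in SHS4m mice (12.8-fold lower, log2 -3.68, standard error 0.58, adjusted p = 0.00704). Pseudogene probes can share sequence with related genes, so its identity is uncertain. Nrep was 3882, 2417, 1641 and 1105 against 284, 397, 348 and 287 (6.24-fold lower), and Ccn1, a matrix protein induced by growth signals, was 543, 636, 448 and 500 against 119, 134, 96.6 and 102 (4.71-fold lower), with adjusted p = 0.00272 and 0.00376. Dnase2a, the lysosomal nuclease, fell 4.4-fold, Sdr9c7, a short-chain dehydrogenase, 4.55-fold, Lst1, a leukocyte transcript, 4.98-fold and the pseudogene Adh6-ps1 5.84-fold (adjusted p = 0.00377, 0.00312, 0.00429 and 0.0013). Tcl1b4, Cacng7 and 3110045C21Rik also fell, by log2 differences of -2.30, -2.13 and -2.51, to levels at the floor on most SHS4m arrays.

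Of the 10 genes with the smallest p-values, Cyp2b10 and Gstm3 are described above, and the rest follow. Gm4951 was 7403, 7491, 7551 and 7705 in controls and 3686, 3375, 3349 and 3735 in SHS4m mice (2.13-fold lower, log2 -1.09, standard error 0.05, adjusted p = 1.33e-05). Serpina9 was 97.5, 87.1, 94 and 110 in controls and under the floor on all 4 SHS4m arrays (at least 3.03-fold lower, adjusted p = 1.76e-05). Tmem170 (1011, 967, 965 and 977 against 440, 493, 496 and 394) and Fahd1, a mitochondrial hydrolase, were 2.16-fold and 2.52-fold lower, and Slc66a2 was 1.84-fold lower. On the other side Fam234b (719, 744, 718 and 702 against 1812, 1719, 1518 and 1641), Crcp and the golgin Golga5 were 2.32-fold, 2.15-fold and 1.52-fold higher. The adjusted p of these 6 genes lay between 0.000177 and 0.000294. With the mean of all probe sets of a gene, the calls of Fam234b and Slc66a2 ended (log2 0.71 and -0.29, adjusted p = 0.0954 and 0.0525).

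A large difference did not always pass. There were 240 genes with a 2-fold difference or more between group means that were not called. The largest was Rgs16, a regulator of G protein signalling chosen here after its values were seen, with a signal of 1848, 971, 130 and 22.3 in controls and 4857, 2815, 6242 and 4618 in SHS4m mice (log2 difference 3.92, adjusted p = 0.072). Its controls showed the same split of replicates 1 and 2 from 3 and 4 as the clock outputs above. At an unadjusted p under 0.05 with a 2-fold difference, the paper lists Rgs16 as higher in exposed mice. Its own adjusted p-values for the Rgs16 probe sets it lists were also under 0.05. Why they differ from the value here was not tested. The paper also reports a rise of Rgs16 by RT-qPCR.

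Probe sets of 1 gene did not always move together. Of 9010 genes with 2 or more probe sets, 1305 had at least 1 called, 101 had all of them called in the same direction, and 13 had calls in opposite directions. The widest gap was in Slc38a10, with log2 differences of 0.34 (adjusted p = 0.0066) and -2.43 (adjusted p = 0.0012) in 2 probe sets. Txnrd1, the thioredoxin reductase counted above among the NRF2 targets that rose, had 1 probe set at 0.52 (adjusted p = 0.0069) and another at -0.70 (adjusted p = 0.035). Opposite calls were also found in Raph1, Cdc73, Crk, Ube2d3, Rab3ip and Arpp19, with gaps of 1.05 to 1.65 log2 units. For these genes a direction holds for a probe set and not for the gene as a whole.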

How the data were processed

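Liver RNA of 12 samples was hybridised to 1-colour Affymetrix whole-genome mouse arrays. The authors summarised probe sets in Affymetrix Expression Console and deposited linear intensity values, and on every array the mean after trimming 2% at each end was 500. Which summarisation they used is not stated in the sources read. Values under 32 were raised to 32 and log2 taken, control probe sets were left out, and 45037 probe sets were fitted with limma 3.58.1 (R 4.3.3) in a 3-group model of all 12 arrays, with the Benjamini-Hochberg adjustment over all of them and a threshold of 0.05. The fit was tested on simulated data. The study's methods used an unadjusted p under 0.05 with a 2-fold difference, which was run as an alternative. This rule called 1114 probe sets here, more than the paper reports for the end of exposure, and the cause was not tested. Of the probe sets, 34945 named 1 gene, 932 several and 9160 none here, and genes were read by the brightest probe set naming 1 gene. A list's median is over its measured members (1098 of 1219 genes in 53 lists).

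Samples were grouped by source name. The number of arrays limits precision. The genes named are the 15 with the largest rise and the 15 with the largest fall, the 10 with the smallest p, the first 3 members of each list and up to 5 called members in each direction, and up to 8 genes with opposite probe sets, and of these not all are given. The members and lists were chosen with earlier results of these data known. Promoters are from RefSeq (GRCm38.p6). Alternatives changed the floor, the offset, the scaling, the filter, the variance model, the arrays fitted and the reading of genes.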

Additional observations from a re-analysis of the deposited data

Results flagged for a closer look

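In 18 of the 371 groups of 4 arrays examined over 192 genes, 1 array stood apart from the other 3 by Dixon's test, which is 4.9%, and chance gives about 1 in 20 groups. The 13 groups with 2 or more arrays at the floor of 32 were left out, since values at the floor have no order. Signals are given with the range of the other 3 arrays of the group. Signal stood above the rest for Cebpd on control replicate 2 (434.6 against 258.9 to 279.6), Cyp2b10 on control replicate 4 (812.2 against 402.9 to 443), Cyp3a11 on SHS4m replicate 66 (64184 against 54551 to 55408), Fasn on control replicate 3 (6115 against 2402 to 2595) and Golga5 on SHS4m replicate 67 (1154 against 1070 to 1084). The same was seen for Lpin1 on SHS4m replicate 69 (10772 against 7581 to 7895), Sc5d on control replicate 3 (15919 against 10961 to 11296), Serpina4-ps1 on SHS4m replicate 69 (231.2 against 74.07 to 82.56), Srebf1 on SHS4m replicate 67 (7560 against 5017 to 5118) and Tk1 on SHS4m replicate 67 (918.2 against 651.1 to 690.3). Signal stood below the rest for Adh6-ps1 on SHS4m replicate 66 (55.84 against 100.9 to 109.8), Crcp on SHS4m replicate 67 (1971 against 2175 to 2196), Cyp1a2 on control replicate 3 (28895 against 30390 to 30659) and Fmo1 on control replicate 3 (4066 against 5239 to 5472). Low values were also found for Gstm2 on SHS4m replicate 67 (4416 against 5856 to 6132), Lcn2 on control replicate 3 (140.8 against 512.6 to 583), Oasl2 on control replicate 3 (59.15 against 133.1 to 150.7) and Xdh on control replicate 3 (2338 against 2695 to 2762). Control replicate 3 was the array that stood apart in 7 of these groups, SHS4m replicate 67 in 5 and SHS4m replicate 68 in none.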

How the results depend on the processing

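No paired analysis was possible because the groups share no replicate numbers. Of 2430 probe sets and 1359 genes called, 1520 and 808 were called with the floor at the 25th percentile, 1624 and 847 with 32 added to the signal, and 1114 and 512 with an unadjusted p and a 2-fold difference. Leaving out 1 array gave 1587 to 2041 probe sets and 884 to 1168 genes, with both lowest without control replicate 3. Median centring, which moved the median log2 difference of all probe sets by 0.08, gave 1839 and 994, of which 60.9% and 63.7% were higher, against 46.75% and 49.96%. The other settings gave 2487 and 1392 (quantile normalization), 2146 and 1181 (only the 8 arrays), 3264 and 1882 (a filter on dim probe sets), 2379 and 1338 (a trended, robust variance), 2568 and 1428 (array weights), 1323 genes (the mean of a gene's probe sets) and, chosen after seeing the data, 2535 and 1412 (without recovery replicate 72). With the mean of a gene's probe sets the sign turned for 42 called genes, and under no other setting for any called gene. Among the genes examined these were Hnrnpd (-0.0196), Masp1 (-0.0128), Pgm1 (-0.025) and Psma3 (0.10), none of which then passed. Of genes not called, Syncrip turned to -0.49 with that mean (adjusted p = 0.003486) and Cps1 to 0.17 with quantile normalization (adjusted p = 0.03729). The cause was not tested. Of 205 named genes with a call, 133 kept it whichever of the 8 arrays was left out. Between 29.85% and 33.52% of probe sets lay at the floor on each of the 8 arrays, where a difference cannot be measured.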
